A study of Mus musculus with 9 samples.

Results

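The genes described here encode the proteins that hold epithelial cells together and give them a top and a bottom: 41 genes of tight junctions, desmosomes, cadherin-catenin contacts and the polarity complexes. They were taken by gene symbol from a fixed member list, and all 41 were found among the 18504 genes of the deposited table. RNA was measured by polyadenylated RNA sequencing in J1 cells, which are embryonic stem (ES) cells of the mouse strain 129S4/SvJae, at passages 5 to 7, and all 9 libraries share that line. Yap1_OE overexpresses Yap1 and has the control BirA. Yap1_KO1 and Yap1_KO2 are labelled as Yap1 knockouts and have the untreated line, ESC, as their control. Yap1_KD1 is a Yap1 knockdown and has the library Control. dESC_Yap1_KD1 is a Yap1 knockdown in differentiated ES cells, set against differentiated cells without it, dESC_control. These 9 libraries form 8 groups, and only the knockout label has 2 libraries. The labels give no differentiation protocol or duration, no knockdown reagent, no edited site, and no word on whether the knockout libraries came from separate clones or cultures. The study asked, by its design text, what knockdown of Yap1 does in ES and differentiated ES cells and what its overexpression does.

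Tight junctions seal the space between epithelial cells. Claudins polymerise into the sealing strands, occludin and the related MARVEL proteins sit beside them, and plaque proteins of the ZO and cingulin families tie the strands to actin. Desmosomes are the spot welds of epithelia: desmosomal cadherins grip across the gap, and plakoglobin, plakophilins and desmoplakin anchor them to keratin filaments. Polarity is set by the PAR complex (Pard3, Pard6 and an atypical protein kinase C), the Crumbs complex and the Scribble complex. Yap1 is a transcriptional coactivator that acts through TEAD proteins, and several of these junction proteins, above all the angiomotins and alpha-catenin, are known to bind it or to hold it outside the nucleus. ES cells grow as compact colonies joined by E-cadherin and already transcribe many junction genes.

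Promoter windows of 6 members are shown here, some chosen for their levels and the others for a motif match. Bcam, Cgn, Cldn4 and Cldn6 were lower in every library with reduced or knocked-out Yap1 as labelled. Other members, such as Cldn3 and Epcam, had that order too and are not shown. Cldn7 and Crb3 each have a window with letters that TEAD proteins are known to prefer, but both were higher in Yap1_KD1 than in Control. Prkci also has such a window and is not shown. Each window covers the 250 bases before the RefSeq transcription start (build GRCm38.p6), 5′ to 3′ on the strand of the gene. Capitals mark CATTCC or its reverse complement GGAATG, the core TEAD letters, and CAGGTG or its reverse complement CACCTG, the E-box bound by Snail and Zeb repressors. For Cldn7 and Crb3 the window with the TEAD letters is shown. Their other windows, at chr11:69965171-69965420 and chr17:57061981-57062230, hold 0 TEAD matches, and 2 and 3 E-box matches. The 2 motifs share no overlapping match in the windows shown. The windows are Bcam at chr7:19770533-19770782 on the minus strand, Cgn at chr3:94786483-94786732 on the minus strand, Cldn4 at chr5:134946935-134947184 on the minus strand, Cldn6 at chr17:23679115-23679364 on the plus strand, Cldn7 at chr11:69964529-69964778 on the plus strand, and Crb3 at chr17:57061951-57062200 on the plus strand.
Bcam: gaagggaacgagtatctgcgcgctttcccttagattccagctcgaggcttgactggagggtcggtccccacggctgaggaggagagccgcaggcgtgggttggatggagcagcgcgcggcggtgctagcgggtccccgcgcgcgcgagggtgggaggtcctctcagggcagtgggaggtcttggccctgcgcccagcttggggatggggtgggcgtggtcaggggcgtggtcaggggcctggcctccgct
Cgn: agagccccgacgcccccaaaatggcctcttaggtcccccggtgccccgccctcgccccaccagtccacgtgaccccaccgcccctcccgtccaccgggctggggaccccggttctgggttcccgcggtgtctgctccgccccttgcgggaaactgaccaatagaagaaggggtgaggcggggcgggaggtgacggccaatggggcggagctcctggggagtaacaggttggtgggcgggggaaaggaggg
Cldn4: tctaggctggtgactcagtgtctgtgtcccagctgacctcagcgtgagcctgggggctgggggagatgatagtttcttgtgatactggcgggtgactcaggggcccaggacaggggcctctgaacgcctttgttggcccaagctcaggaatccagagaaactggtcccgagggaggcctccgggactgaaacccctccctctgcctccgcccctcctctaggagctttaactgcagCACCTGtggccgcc
Cldn6: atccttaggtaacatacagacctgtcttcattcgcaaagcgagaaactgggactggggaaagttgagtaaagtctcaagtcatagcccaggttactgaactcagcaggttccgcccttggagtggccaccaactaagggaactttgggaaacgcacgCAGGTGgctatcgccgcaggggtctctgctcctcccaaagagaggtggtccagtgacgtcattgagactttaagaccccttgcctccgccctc
Cldn7: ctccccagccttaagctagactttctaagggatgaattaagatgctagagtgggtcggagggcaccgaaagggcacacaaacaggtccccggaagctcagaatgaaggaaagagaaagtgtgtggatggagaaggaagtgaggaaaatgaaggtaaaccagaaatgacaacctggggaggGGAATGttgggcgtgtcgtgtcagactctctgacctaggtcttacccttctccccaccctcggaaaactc
Crb3: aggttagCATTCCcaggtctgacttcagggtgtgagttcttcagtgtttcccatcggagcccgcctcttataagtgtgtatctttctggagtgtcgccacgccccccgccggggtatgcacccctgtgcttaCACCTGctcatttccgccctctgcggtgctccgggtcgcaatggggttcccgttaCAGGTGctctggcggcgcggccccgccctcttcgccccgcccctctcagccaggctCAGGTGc
Of the 41 members, 30 had a RefSeq window, 46 windows in all. CATTCC in either orientation was present in 3 of the 46 windows (genes Cldn7, Crb3 and Prkci), against 12.6% of 32851 windows of the same length over all genes. CAGGTG in either orientation was present in 15 of 46 windows, belonging to 12 genes, against 17.2% of all windows. These 12 were Cldn4, Cldn6, Cldn7, Crb3, Epcam, F11r, Ocln, Pard3, Pard6b, Pkp4, Prkcz and Tjp3. The Cldn7 matches lie in its window that is not shown. Windows of the same gene can overlap, as those of Crb3 do, so a match can count in more than 1 window. AACCGGTT, the palindrome bound by Grainyhead-like factors of epithelia, was in 0 of 46 member windows and in 0.116% of all windows. These matches describe the letters only.

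Yap1 itself was examined first. It stood at 139 FPKM in Yap1_OE and 46.7 FPKM in BirA. FPKM scale the fragments of a gene to its transcript length and to the depth of its library, so levels of different genes can be set side by side. The knockout-labelled libraries had 57.3 FPKM (Yap1_KO1) and 27.6 FPKM (Yap1_KO2), against 65.4 FPKM in ESC. Both knockout-labelled libraries thus kept Yap1 RNA, at 87.6% and 42.2% of ESC, and directions drawn from them are directions of libraries with that label. Yap1 stood at 4.55 FPKM in Yap1_KD1 and 37.4 in Control, and at 12.5 in dESC_Yap1_KD1 and 78.0 in dESC_control, which is 12.2% and 16.03% of the control. The 8 ES cell markers summed to 4515 to 6527 FPKM in the 7 undifferentiated libraries, with Pou5f1 at 1016 FPKM or more in each, and to 3267 in dESC_Yap1_KD1 and 2165 in dESC_control. Depth recovered from the step size of low values lay between 9.20 M (mega) fragments for Yap1_KO1 and 22.3 M for Control.

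Levels of the members differed widely. Beta-catenin (Ctnnb1) was the most abundant, between 236 and 359 FPKM over the 9 libraries, and Cldn23 was under 1 FPKM in every one. Cldn4 was the most abundant claudin in each of the 7 undifferentiated libraries, and Cldn1 and Cldn23 were under 1 FPKM there. In the plot of levels by gene and library, the rightmost column, dESC_control, is the brightest for most rows.

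**Figure D1:**
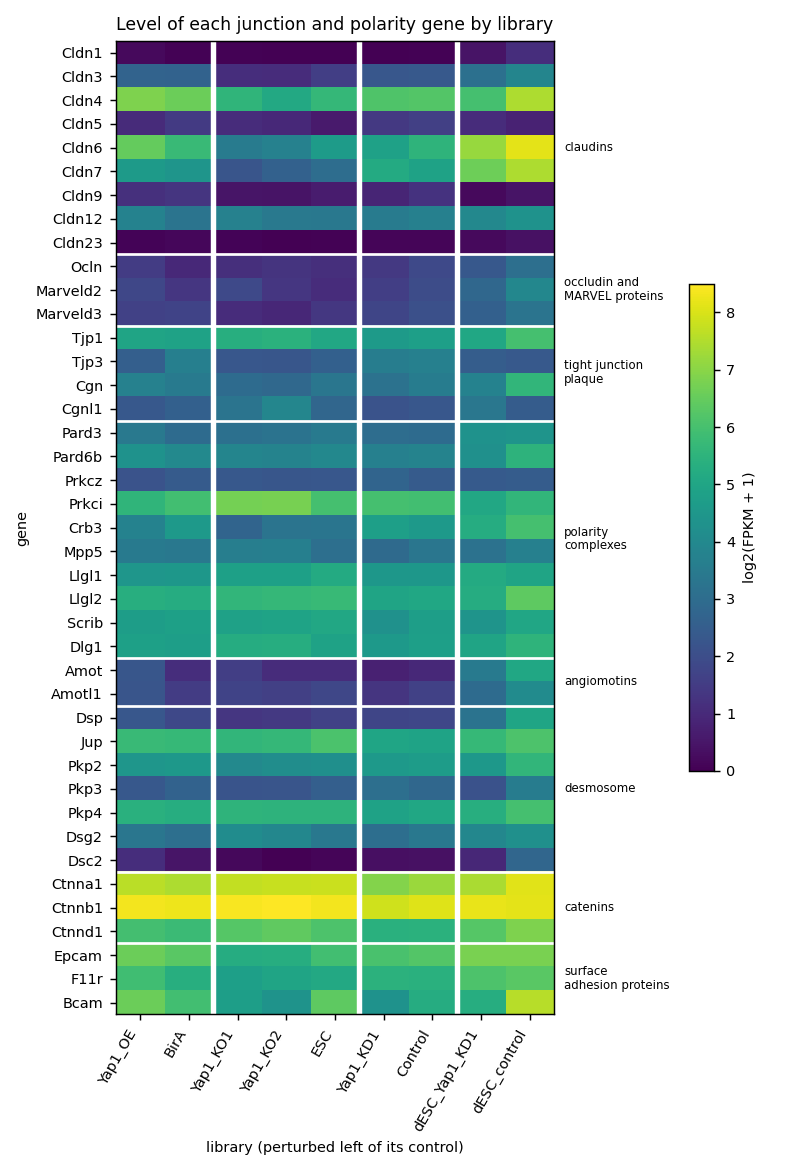
Level of each of the 41 genes (rows, grouped by role) in each of the 9 libraries (columns, each perturbed library left of its control), as log2(FPKM + 1) by colour. Cldn6, Cldn7, Amot, Amotl1, Dsp and Cgn were brighter in dESC_control than in every undifferentiated library, and Ctnnb1 was bright in all 9.

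The controls themselves differed, which sets the scale for every comparison of single libraries. A ratio here is a log2 ratio of FPKM + 1, and genes under 1 FPKM in all libraries compared were left out. BirA was at least 2-fold above ESC for 5 members (Cldn3, Cldn6, Cldn7, Crb3 and Tjp3) and 2-fold below it for 0, where 0.937% and 0.429% of all genes tested were. Control was at least 2-fold above ESC for 4 (Cldn5, Cldn7, Crb3 and Tjp3) and below it for 2 (Bcam and Jup), against 2.63% and 1.71% of all genes. Over all genes these were 308 higher and 200 lower, and 467 and 124 after each library was centred on its median, which moved the median ratio of all genes to 0.10 from -0.013. BirA and Control differed 2-fold for 0 members in either direction, against 0.266% and 0.833% of all genes. Over the 3 undifferentiated controls, the highest FPKM was at least 2-fold above the lowest for 13 of 39 members, against 14.7% of all genes at 1 FPKM or more. Cldn7 was the widest of the abundant ones, at 20.6 FPKM in BirA and 28.99 in Control, with 7.12 in ESC. A cause of this spread, such as colony density or culture, was not tested.

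The members differed most between differentiated and undifferentiated libraries. In the fit over both differentiated and both undifferentiated libraries of the knockdown arm, with a term for the knockdown, 25 of 40 members tested rose and 3 fell (limma, Benjamini-Hochberg adjusted p under 0.05 over 12582 genes). In the same fit 23.3% of all genes rose and 21.6% fell, and the median log2 ratio was 0.81 over the members and 0.020 over all genes. All 3 of the occludin and MARVEL genes, both angiomotins and all 3 of the other surface proteins rose, as did 4 of 8 claudins, 4 of 7 desmosome genes, 5 of 10 polarity genes and 2 of 3 catenins. Only Tjp3, Cldn9 and Prkci fell among the 40. The fit has 1 residual degree of freedom, so its error is the departure of the pairs from additivity, moderated over all genes.

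The knockdown in differentiated cells came next in size. dESC_Yap1_KD1 was at least 2-fold below dESC_control for 12 of 39 members and 2-fold above it for 0, where 4.5% and 1.54% of all genes were. Of the 39, 34 had a ratio below 0 and 5 above it, as 51.5% and 48.5% of all genes had, and the median ratio was -0.69 over the members and -0.011 over all genes. The 12 were the desmosome genes Dsp, Dsc2, Pkp2 and Pkp3, the angiomotins Amot and Amotl1, the tight junction genes Cldn4, Marveld2 and Cgn, the polarity genes Pard6b and Llgl2, and the laminin receptor Bcam. With a pseudocount of 5 FPKM 7 of the 12 remained 2-fold lower, and Marveld2, Amotl1, Pkp2, Pkp3 and Dsc2 did not, which left Dsp alone of the desmosome genes. All 7 desmosome genes were below the control. These are ratios of 1 library to 1, with no replicate check and no p-value. In bulk RNA, fewer cells of a type and less RNA per cell cannot be told apart.

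Markers of other cell types moved with these differences, in both directions. The 6 simple epithelial markers summed to 367 FPKM in dESC_Yap1_KD1 and 1778 in dESC_control, and to 114 to 349 in the undifferentiated libraries. Krt8 stood at 65.3 and Krt18 at 102 FPKM in dESC_Yap1_KD1, against 486 and 832 in dESC_control, while Muc1 was under 1 FPKM in all 9. The 8 trophoblast markers found summed to 50.4 FPKM in dESC_Yap1_KD1 and 113 in dESC_control, against 20.5 to 54.5 before differentiation, with Elf5 at or near 0 throughout. These sums are not separate, because the trophoblast list shares Krt7 with the simple epithelial list and Eomes with the primitive streak list. Krt7 was at 2.12 FPKM in dESC_Yap1_KD1 and 33.1 in dESC_control, and Eomes at 12.7 and 22.0. The 7 primitive streak markers summed to 35.7 FPKM in dESC_Yap1_KD1 and 114 in dESC_control, against 2.13 to 4.78 in undifferentiated cells. Squamous markers summed to 102 in dESC_Yap1_KD1 and 491 in dESC_control, most of it Sfn, while Krt5 and Trp63 were at or near 0 in every library. Of the feeder fibroblast markers, Lum, Dcn, Postn and Col3a1 were at 0 to 0.281 FPKM in all 9 libraries. The whole fibroblast list summed to 9.55 FPKM in dESC_Yap1_KD1 and 11.6 in dESC_control. Its member Thy1 stood at 8.21 FPKM in dESC_Yap1_KD1 and 3.405 in dESC_control, and at 4.64 to 39.2 in the undifferentiated libraries. Col1a1 was at 0.444 FPKM in dESC_Yap1_KD1 and 5.73 in dESC_control, lower under the knockdown like the junction genes, and Pdgfrb lay between 0.506 and 2.75 FPKM over the 9. Other lists were higher under the knockdown. The 6 neuroectoderm markers summed to 111 FPKM in dESC_Yap1_KD1 and 74.7 in dESC_control, against 23.7 to 41.8 before differentiation, with Otx2 at 80.99 in dESC_Yap1_KD1 and 24.03 in dESC_control. The 7 endothelial markers summed to 18.1 FPKM in dESC_Yap1_KD1 and 8.52 in dESC_control, most of it Pecam1, which ES cells also express, and to 32.9 to 39.8 before differentiation. Tfap2c of the trophoblast list was likewise higher, at 18.4 FPKM in dESC_Yap1_KD1 and 8.87 in dESC_control. Mesenchyme markers summed to 203 in dESC_Yap1_KD1 and 259 in dESC_control, and endoderm markers to 4.79 in dESC_Yap1_KD1 and 9.695 in dESC_control. The part of these cell types in the junction results was not tested.

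The other comparisons moved fewer members. Yap1_OE was at least 2-fold above BirA for 1 of 39 members (Amot) and below it for 1 (Tjp3), where 1.36% and 2.14% of all genes were, and 27 members had a ratio above 0 and 12 below it, as 52.4% and 47.6% of all genes had. The median ratio was 0.088 over the members and 0.019 over all genes. In the knockout-labelled libraries 1 of 37 members, Bcam, fell against ESC and 0 rose (limma, adjusted p under 0.05), where 0.332% and 0.0874% of 11444 genes did. At an unadjusted p under 0.05 there were 13 members, against 13.9% of all genes higher and 11.9% lower. After median centring 3 members fell and 1 rose, with 219 and 166 of all genes, against 38 and 10 without it. Yap1_KD1 was 2-fold apart from Control for 0 of 37 members in either direction, where 0.204% of all genes were higher and 0.238% lower, yet 29 of the 37 lay below 0 and 8 above it, as 48.5% and 51.5% of all genes did. The median ratio there was -0.14 over the members and 0.0090 over all genes. In the fit that joined the knockout-labelled and knockdown libraries, each against its own control, 0 of 38 members passed in limma. In that joint fit 0.00834% of 11997 genes rose and 0.025% fell, and 6 members had an unadjusted p under 0.05, where 3.22% of all genes were higher and 4.43% lower. For the knockdown term over both states limma called 0 of 40 members and 0 of 12582 genes, with 11 members and 992 genes at an unadjusted p under 0.05 (4.09% of all genes higher and 3.79% lower). There 35 of the 40 members lay below 0 and 5 above it, as 50.8% and 49.2% of all genes did, with a median of -0.41.

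**Figure D2:**
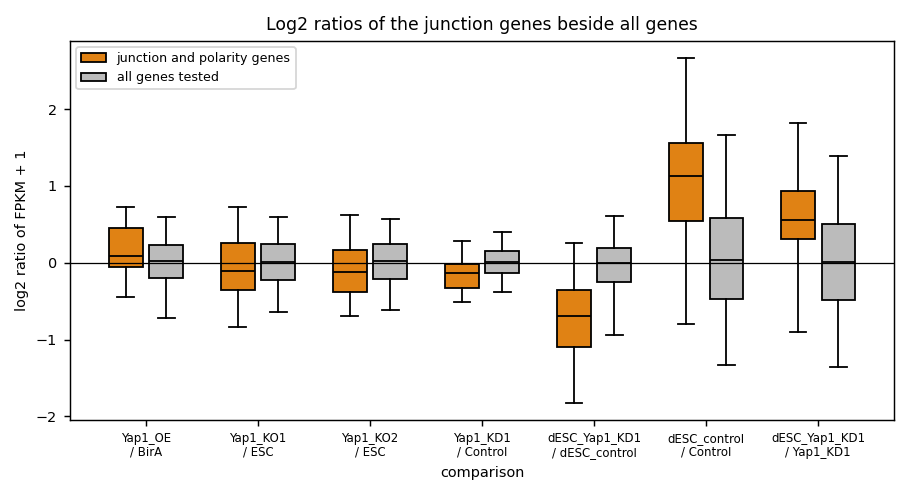
Boxes show the median and quartiles, and whiskers the 5th and 95th percentiles, of log2 ratios of FPKM + 1 for the members (orange) and all genes tested (grey) in each comparison of 1 library with another. The members' median was -0.69 for dESC_Yap1_KD1 over dESC_control, 1.13 for dESC_control over Control and 0.55 for dESC_Yap1_KD1 over Yap1_KD1, with all-gene medians of -0.011, 0.041 and 0.0054.

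**Figure D3:**
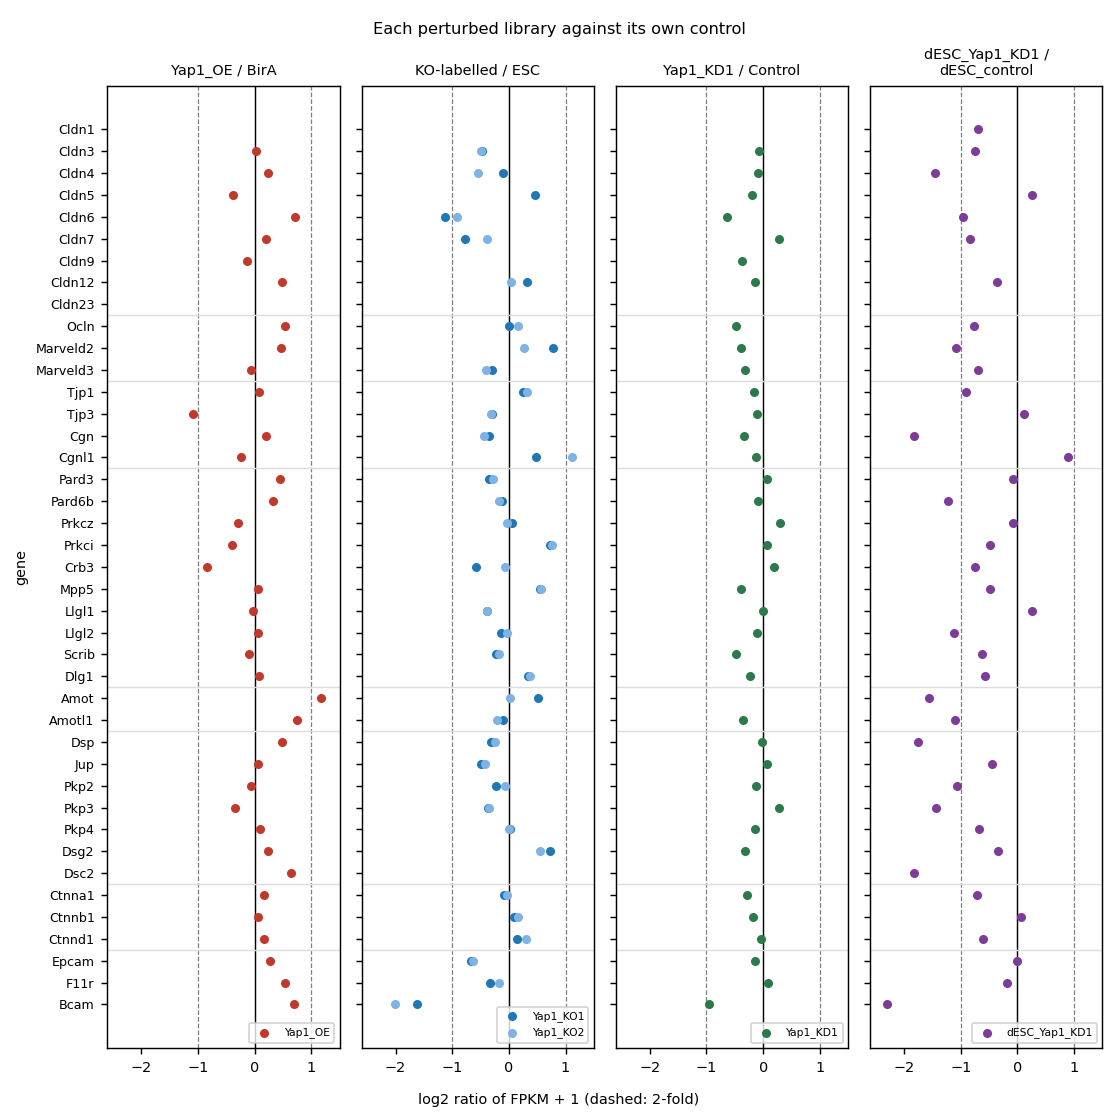
Log2 ratio of FPKM + 1 of each member (rows) in each perturbed library against its own control, in 4 panels; dashed lines mark 2-fold. Most points of the dESC_Yap1_KD1 panel lie left of 0, and Bcam is the leftmost point of the knockout-labelled, Yap1_KD1 and dESC_Yap1_KD1 panels.

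Bcam, a receptor for laminin of the immunoglobulin family, had the lowest ratio of the members in all 3 comparisons of a knockout-labelled or knockdown library with its control. Its level was 95.7 FPKM in Yap1_OE and 59.1 in BirA, 26.2 in Yap1_KO1 and 19.6 in Yap1_KO2 against 82.4 in ESC, and 18.9 in Yap1_KD1 and 37.5 in Control. In differentiated cells it was 37.8 FPKM in dESC_Yap1_KD1 and 190.0 in dESC_control. Every library with less Yap1 by its label was lower than its own control, and Yap1_OE was higher than BirA. The 3 undifferentiated loss libraries all lay below the 3 undifferentiated controls. That order held for 2 of 38 members, near the 4.43% of all genes with it. The log2 ratio to ESC was -1.82 with a standard error of 0.18 (n = 2 against 1; limma, adjusted p = 0.0293). Without Yap1_KO1 the ratio was -2.02 and without Yap1_KO2 -1.62, values that carry no test. The call was lost when small RNA rows were kept (adjusted p = 0.146), with no filter on low genes (0.278) and against all 3 controls (0.0851). In the joint fit its ratio was -1.45 ± 0.21 (SE; limma, adjusted p = 0.0866). With either knockout-labelled library left out, that fit holds no replicate in any group, so its p-values are not given. The arms it joins lay apart for Bcam, with -0.95 in Yap1_KD1 beside -1.62 in Yap1_KO1 and -2.02 in Yap1_KO2. Bcam rose with differentiation by 1.63 ± 0.34 (SE; limma, adjusted p = 0.0219), to a level under knockdown, 37.8 FPKM, that was near the 37.5 FPKM of undifferentiated Control.

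Epcam and F11r are the other adhesion proteins of the cell surface on the list. Epcam, a homophilic adhesion molecule of epithelia that binds claudin-7, was at 95.96 FPKM in Yap1_OE and 79.2 in BirA, 37.1 in Yap1_KO1 and 38.02 in Yap1_KO2 against 59.2 in ESC, and 65.9 in Yap1_KD1 and 72.99 in Control. It was at 108 FPKM in dESC_Yap1_KD1 and 109 in dESC_control, so the differentiated pair was level while both were above all 7 undifferentiated libraries. Both knockout-labelled libraries were the lowest of the 9, with a ratio to ESC of -0.64 ± 0.11 (SE; limma, adjusted p = 0.0636), and Epcam rose with differentiation by 0.64 (adjusted p = 0.013). F11r, which encodes the junctional adhesion molecule JAM-A, was at 57.7 FPKM in Yap1_OE and 39.5 in BirA, 26.9 in Yap1_KO1 and 30.1 in Yap1_KO2 against 34.1 in ESC, and 43.2 in Yap1_KD1 and 40.5 in Control. F11r stood at 69.1 FPKM in dESC_Yap1_KD1 and 78.3 in dESC_control. It rose with differentiation by 0.80 ± 0.12 (SE; limma, adjusted p = 0.0115), and its knockdown ratios were 0.091 before and -0.18 after differentiation.

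Among the claudins Cldn6 followed the labels most closely. Cldn6, a claudin of embryonic epithelia, was at 88.5 FPKM in Yap1_OE and 53.4 in BirA, 10.6 in Yap1_KO1 and 12.3 in Yap1_KO2 against 24.3 in ESC, and 28.1 in Yap1_KD1 and 44.5 in Control. Differentiated cells had 145 FPKM in dESC_Yap1_KD1 and 282 in dESC_control, the highest claudin level of the series. Cldn6 was lower in all 4 loss libraries than in their own controls and higher in Yap1_OE than in BirA. The 3 undifferentiated loss libraries overlapped the controls, because Yap1_KD1 at 28.1 FPKM was above ESC at 24.3. Its ratio in the knockout-labelled libraries was -1.03 ± 0.15 (SE, n = 2 against 1; limma, adjusted p = 0.0553) and in the joint fit -0.86 ± 0.15 (adjusted p = 0.125). Neither passed, but the knockout comparison did with a trend on GC content removed (ratio -0.88, adjusted p = 0.0417), after median centring (0.0335), with a pseudocount of 5 FPKM (0.0405) and with a filter at 5 FPKM (0.0400). It rose with differentiation by 2.48 ± 0.12 (SE; adjusted p = 0.00356), in both pairs. Its gene neighbour and closest relative Cldn9 differed from it in the direction of the state difference, while it too was lower in all 4 loss libraries than in their own controls. Cldn9 was at 1.25 FPKM in Yap1_OE and 1.46 in BirA, 0.411 in Yap1_KO1 and 0.361 in Yap1_KO2 against 0.564 in ESC, and 0.841 in Yap1_KD1 and 1.39 in Control. At 0.173 FPKM in dESC_Yap1_KD1 and 0.354 in dESC_control, it was lower in both differentiated libraries than in all 7 undifferentiated ones, with a state ratio of -0.73 (adjusted p = 0.0496) at levels of about 3 to 45 fragments a library. That call was lost with small RNA rows kept (adjusted p = 0.0601) and with a pseudocount of 5 FPKM (0.0687).

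Cldn3, Cldn4 and Cldn7 are claudins of simple epithelia. The first pair is also known as the receptors of Clostridium perfringens enterotoxin. Cldn4 was at 114 FPKM in Yap1_OE and 96.1 in BirA, 46.4 in Yap1_KO1 and 33.7 in Yap1_KO2 against 49.99 in ESC, and 69.5 in Yap1_KD1 and 73.8 in Control. In the differentiated pair Cldn4 was at 62.4 FPKM in dESC_Yap1_KD1 and 173 in dESC_control. Only dESC_control stood out upward: without the knockdown Cldn4 was 2.34-fold its undifferentiated level, while dESC_Yap1_KD1 was below Yap1_KD1, and the state term did not pass (limma, adjusted p = 0.251). Cldn3 was at 5.47 FPKM in Yap1_OE and 5.36 in BirA, 1.16 in Yap1_KO1 and 1.13 in Yap1_KO2 against 1.98 in ESC, and 3.89 in Yap1_KD1 and 4.17 in Control. With 7.76 FPKM in dESC_Yap1_KD1 and 13.7 in dESC_control, it rose with differentiation by 1.18 ± 0.22 (SE; adjusted p = 0.0168), and its knockdown ratio in differentiated cells was -0.75. Wbscr25, also in the table, overlaps Cldn3 in the RefSeq annotation (GRCm38.p6), and whether counting used strand is not given, so their reads could be shared. Cldn7, which binds Epcam, was at 23.7 FPKM in Yap1_OE and 20.6 in BirA, 3.77 in Yap1_KO1 and 5.22 in Yap1_KO2 against 7.12 in ESC, and 35.4 in Yap1_KD1 and 28.99 in Control. It reached 96.3 FPKM in dESC_Yap1_KD1 and 173 in dESC_control. The ESC arm was low as a whole: all 3 of its libraries lay under 20.6 FPKM, the lowest of the other 4 undifferentiated libraries. Its state ratio was 1.98 ± 0.28 (SE; adjusted p = 0.0106). Cldn12, a claudin without the usual PDZ-binding tail, was at 12.5 FPKM in Yap1_OE and 8.68 in BirA, 12.3 in Yap1_KO1 and 9.89 in Yap1_KO2 against 9.67 in ESC, and 10.7 in Yap1_KD1 and 11.9 in Control. It was at 14.6 FPKM in dESC_Yap1_KD1 and 19.1 in dESC_control and rose by 0.53 (adjusted p = 0.0369, and 0.0504 after centring).

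The remaining claudins were scarce. Cldn1, the claudin of the skin barrier, was listed between 0 and 0.169 FPKM in the 7 undifferentiated libraries, and at 0.352 in dESC_Yap1_KD1 and 1.19 in dESC_control, about 19 and 95 fragments. Cldn5, the claudin of the blood-brain barrier endothelium, lay between 0.524 and 2.08 FPKM in all 9 libraries. Cldn23 lay at or under 0.296 FPKM and was tested nowhere.

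Occludin and its relatives all rose with differentiation. Ocln, the first strand protein of tight junctions to be described, was at 1.85 FPKM in Yap1_OE and 0.968 in BirA, 1.19 in Yap1_KO1 and 1.44 in Yap1_KO2 against 1.19 in ESC, and 1.65 in Yap1_KD1 and 2.71 in Control. It was at 4.06 FPKM in dESC_Yap1_KD1 and 7.62 in dESC_control, both above the undifferentiated libraries. Marveld2, or tricellulin, seals the corners where 3 cells meet, and it was at 2.48 FPKM in Yap1_OE and 1.53 in BirA, 2.64 in Yap1_KO1 and 1.55 in Yap1_KO2 against 1.12 in ESC, and 1.99 in Yap1_KD1 and 2.91 in Control. Marveld2 was at 6.13 FPKM in dESC_Yap1_KD1 and 14.1 in dESC_control. Marveld3 was at 2.14 FPKM in Yap1_OE and 2.26 in BirA, 1.09 in Yap1_KO1 and 0.939 in Yap1_KO2 against 1.57 in ESC, and 2.399 in Yap1_KD1 and 3.25 in Control. The differentiated pair had 5.02 FPKM in dESC_Yap1_KD1 and 8.698 in dESC_control for Marveld3. Each rose with differentiation (limma): Marveld2 by 1.60 ± 0.23 (SE; adjusted p = 0.0103), Ocln by 1.07 (adjusted p = 0.0137) and Marveld3 by 1.01 (adjusted p = 0.016). Their knockdown ratios were -0.48, -0.39 and -0.32 in undifferentiated cells and -0.77, -1.08 and -0.69 in differentiated cells, for Ocln, Marveld2 and Marveld3 in that order. In the knockout-labelled libraries the 3 did not share a direction, with ratios of 0.080, 0.53 and -0.35.

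In the cytoplasmic plaque the members split. Cgn, cingulin, links tight junctions to actomyosin and microtubules, and it was at 12.1 FPKM in Yap1_OE and 10.4 in BirA, 6.82 in Yap1_KO1 and 6.33 in Yap1_KO2 against 8.995 in ESC, and 8.27 in Yap1_KD1 and 10.7 in Control. It was at 12.5 FPKM in dESC_Yap1_KD1 and 46.9 in dESC_control. The 3 undifferentiated loss libraries all lay below the 3 controls for Cgn, as for Bcam, 2 of 38 members, which is near the 4.43% of all genes. Cgn did not pass the test in the knockout-labelled libraries (-0.40 ± 0.15, SE; limma, adjusted p = 0.165) and was 3.76-fold lower in dESC_Yap1_KD1 than in dESC_control. Its rise with differentiation was 1.28 ± 0.37 (SE; adjusted p = 0.0497), and 0.0750 with small RNA rows kept. Its paralog Cgnl1, paracingulin, behaved differently. Cgnl1 was at 4.11 FPKM in Yap1_OE and 5.04 in BirA, 8.65 in Yap1_KO1 and 13.97 in Yap1_KO2 against 5.93 in ESC, and 3.52 in Yap1_KD1 and 3.96 in Control. It was at 9.42 FPKM in dESC_Yap1_KD1 and 4.59 in dESC_control. Here the loss libraries were high in the knockout arm and after differentiation, and Yap1_KD1 was level with Control; Cgnl1 was the only member at least 2-fold above ESC in Yap1_KO2, where 0.469% of all genes were higher and 1.44% lower. In Yap1_KO1 2 members, Cldn6 and Bcam, were 2-fold below ESC and 0 above it, against 1.45% and 0.448% of all genes.

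Tjp1, or ZO-1, is the scaffold that recruits claudins, and it was at 30.3 FPKM in Yap1_OE and 28.8 in BirA, 39.4 in Yap1_KO1 and 41.5 in Yap1_KO2 against 32.9 in ESC, and 23.5 in Yap1_KD1 and 26.5 in Control. Tjp1 stood at 32.7 FPKM in dESC_Yap1_KD1 and 62.1 in dESC_control, so that dESC_control was far above the other 8 libraries, while dESC_Yap1_KD1 lay inside their range. It rose with differentiation by 0.83 (limma, adjusted p = 0.0339, and 0.0522 with small RNA rows kept). Tjp3, or ZO-3, went down where most members went up. Tjp3 was at 4.94 FPKM in Yap1_OE and 11.6 in BirA, 3.95 in Yap1_KO1 and 3.88 in Yap1_KO2 against 5.09 in ESC, and 11.1 in Yap1_KD1 and 11.9 in Control. Tjp3 was at 4.62 FPKM in dESC_Yap1_KD1 and 4.18 in dESC_control. BirA, Control and Yap1_KD1 were high, and the ESC arm, Yap1_OE and the differentiated pair were low. Its state ratio was -1.21 ± 0.15 (SE; adjusted p = 0.00863), and its ratio in Yap1_OE was -1.08 against BirA, or -0.75 against the mean of the 3 controls, which is no longer 2-fold. Apba3 overlaps Tjp3, so reads of the pair could have been shared.

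The members of the polarity complexes differed among themselves. Pard3, the scaffold of the PAR complex, was at 9.805 FPKM in Yap1_OE and 6.92 in BirA, 7.84 in Yap1_KO1 and 8.33 in Yap1_KO2 against 10.3 in ESC, and 7.27 in Yap1_KD1 and 6.85 in Control. Pard3 was at 19.04 FPKM in dESC_Yap1_KD1 and 20.2 in dESC_control, level within the pair and above all 7 undifferentiated libraries, and rose by 1.35 ± 0.14 (SE; limma, adjusted p = 0.00665). Pard6b, its partner that binds Cdc42, was at 19.2 FPKM in Yap1_OE and 15.1 in BirA, 13.5 in Yap1_KO1 and 12.9 in Yap1_KO2 against 14.7 in ESC, and 12.04 in Yap1_KD1 and 12.9 in Control. Pard6b was at 18.1 FPKM in dESC_Yap1_KD1 and 43.9 in dESC_control. Unlike Pard3, most of its rise with differentiation was seen without the knockdown (1.70, against 0.55 under it). Prkci, an atypical protein kinase C of the same complex, was at 45.6 FPKM in Yap1_OE and 60.2 in BirA, 104 in Yap1_KO1 and 106 in Yap1_KO2 against 62.1 in ESC, and 62.7 in Yap1_KD1 and 59.6 in Control. Prkci was at 33.3 FPKM in dESC_Yap1_KD1 and 46.8 in dESC_control. Both knockout-labelled libraries were well above all others. The 3 loss libraries all lay above the 3 controls, with Yap1_KD1 at 62.7 FPKM only just above ESC at 62.1. Of 38 members only Prkci had this order, no larger a share than the 4.65% of all genes. Its ratio to ESC was 0.74 ± 0.10 (SE; limma, adjusted p = 0.0553), which passed after centring, with a filter at 5 FPKM and with a pseudocount of 5 FPKM. Yap1_KD1 was only 0.073 above Control on the log2 scale. Prkci fell with differentiation, with a state ratio of -0.62 (adjusted p = 0.0415; 0.0871 with a GC trend removed). The related kinase Prkcz lay between 3.49 and 5.68 FPKM in all 9 libraries.

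Crb3, the Crumbs protein of epithelia, was at 12.5 FPKM in Yap1_OE and 23.4 in BirA, 5.68 in Yap1_KO1 and 8.54 in Yap1_KO2 against 8.95 in ESC, and 26.6 in Yap1_KD1 and 23.1 in Control. Crb3 was at 37.4 FPKM in dESC_Yap1_KD1 and 63.1 in dESC_control, above every undifferentiated library. The log2 ratio of Yap1_OE to BirA was -0.85, but at 12.5 FPKM it was above the whole ESC arm, so this difference is smaller than that between the controls. Crb3 rose with differentiation by 0.94 ± 0.25 (SE; limma, adjusted p = 0.0384). Its partner Mpp5, also called PALS1, lay between 6.66 and 11.9 FPKM, with a ratio of 0.56 in the knockout-labelled libraries (adjusted p = 0.088). Of the Scribble complex, Llgl2 was at 39.3 FPKM in Yap1_OE and 37.7 in BirA, 46.7 in Yap1_KO1 and 49.9 in Yap1_KO2 against 51.3 in ESC, and 29.96 in Yap1_KD1 and 32.6 in Control. Llgl2 was at 37.5 FPKM in dESC_Yap1_KD1 and 82.3 in dESC_control, so dESC_control was the highest library and dESC_Yap1_KD1 lay among the undifferentiated ones. Llgl1, its paralog, was at 21.3 FPKM in Yap1_OE and 21.7 in BirA, 27.1 in Yap1_KO1 and 27.2 in Yap1_KO2 against 35.7 in ESC, and 21.3 in Yap1_KD1 and 21.5 in Control. With 35.9 FPKM in dESC_Yap1_KD1 and 29.9 in dESC_control, Llgl1 was one of 5 members above the control in dESC_Yap1_KD1, and it rose with differentiation by 0.59 (adjusted p = 0.0253; 0.0731 with a GC trend removed). Flii overlaps Llgl1 in the same annotation. Dlg1, the third scaffold of that complex, was at 27.5 FPKM in Yap1_OE and 25.9 in BirA, 36.97 in Yap1_KO1 and 37.9 in Yap1_KO2 against 29.03 in ESC, and 22.7 in Yap1_KD1 and 26.8 in Control. Dlg1 was at 30.02 FPKM in dESC_Yap1_KD1 and 44.9 in dESC_control and rose by 0.56 (adjusted p = 0.0328). Scrib lay between 18.6 and 33.1 FPKM, with both knockdown libraries the lowest.

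Amot had the largest state ratio of the members, and its relative Amotl1 also rose. Angiomotins are junction and actin proteins that bind Yap1 and keep it out of the nucleus, and they are also known as YAP targets. Amot was at 3.84 FPKM in Yap1_OE and 1.14 in BirA, 1.97 in Yap1_KO1 and 1.11 in Yap1_KO2 against 1.09 in ESC, and 0.723 in Yap1_KD1 and 0.986 in Control. Amot was at 10.3 FPKM in dESC_Yap1_KD1 and 32.4 in dESC_control. Yap1_OE was 3.37-fold above BirA and above all 3 controls, both differentiated libraries were above all undifferentiated ones, and dESC_Yap1_KD1 was 3.15-fold below dESC_control. Both knockout-labelled libraries were at or above ESC, so Amot was not lower in every loss library. Its 2-fold excess in Yap1_OE was absent with a pseudocount of 5 FPKM (ratio 0.53), a pseudocount above both values, and BirA held about 116 fragments. It rose with differentiation by 3.39 ± 0.36 (SE; limma, adjusted p = 0.00697). Amotl1 was at 3.76 FPKM in Yap1_OE and 1.82 in BirA, 2.26 in Yap1_KO1 and 2.03 in Yap1_KO2 against 2.51 in ESC, and 1.46 in Yap1_KD1 and 2.15 in Control. Amotl1 was at 6.92 FPKM in dESC_Yap1_KD1 and 15.99 in dESC_control. It was lower in all 4 loss libraries than in their controls and higher in Yap1_OE, and rose with differentiation by 2.06 ± 0.23 (SE; adjusted p = 0.00765). Amotl2, the third family member and not on the list, had the same directions with larger ratios, 1.71 in Yap1_OE, -2.43 in the knockout-labelled pair (adjusted p = 0.0712), -1.09 in Yap1_KD1 and -1.77 in dESC_Yap1_KD1.

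The desmosome genes were lower in dESC_Yap1_KD1 than in dESC_control, all 7 of them. Dsp, desmoplakin, ties the desmosome to keratin filaments and was at 3.98 FPKM in Yap1_OE and 2.58 in BirA, 1.55 in Yap1_KO1 and 1.68 in Yap1_KO2 against 2.17 in ESC, and 2.46 in Yap1_KD1 and 2.48 in Control. Dsp was at 8.35 FPKM in dESC_Yap1_KD1 and 30.5 in dESC_control. Without the knockdown it was 12.3-fold its undifferentiated level and under the knockdown 3.397-fold. In undifferentiated cells Yap1_KD1 and Control were level, with a ratio of -0.011. It rose with differentiation by 2.31 ± 0.44 (SE; limma, adjusted p = 0.0181). Dsc2, a desmosomal cadherin, was at 1.16 FPKM in Yap1_OE and 0.381 in BirA, 0.145 in Yap1_KO1 and 0.0176 in Yap1_KO2 against 0.0903 in ESC, and 0.284 in Yap1_KD1 and 0.308 in Control. Dsc2 was at 0.948 FPKM in dESC_Yap1_KD1 and 5.91 in dESC_control, about 58 and 527 fragments. The undifferentiated values rest on 1 to 117 fragments, and the state term did not pass (adjusted p = 0.0586). Dsg2, its partner cadherin, was at 9.04 FPKM in Yap1_OE and 7.52 in BirA, 16.4 in Yap1_KO1 and 14.4 in Yap1_KO2 against 9.48 in ESC, and 7.38 in Yap1_KD1 and 9.49 in Control. Dsg2 was at 14.2 FPKM in dESC_Yap1_KD1 and 18.3 in dESC_control. Both knockout-labelled libraries were above ESC (0.64 ± 0.14, SE; adjusted p = 0.0817), and Dsg2 rose with differentiation by 0.87 (adjusted p = 0.0115).

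Of the armadillo proteins of the desmosome, Pkp2 was at 20.8 FPKM in Yap1_OE and 21.9 in BirA, 15.1 in Yap1_KO1 and 16.8 in Yap1_KO2 against 17.8 in ESC, and 22.4 in Yap1_KD1 and 24.6 in Control. Pkp2 was at 21.9 FPKM in dESC_Yap1_KD1 and 46.9 in dESC_control, the control alone standing above the undifferentiated range. Pkp3 was at 4.04 FPKM in Yap1_OE and 5.42 in BirA, 3.63 in Yap1_KO1 and 3.67 in Yap1_KO2 against 4.97 in ESC, and 7.59 in Yap1_KD1 and 6.06 in Control. Pkp3 was at 3.41 FPKM in dESC_Yap1_KD1 and 10.9 in dESC_control. dESC_control was the highest library and dESC_Yap1_KD1 the lowest of all 9, while in undifferentiated cells the knockdown was above its control. Pkp4, which also joins cadherins at adherens junctions, was at 41.02 FPKM in Yap1_OE and 38.5 in BirA, 44.6 in Yap1_KO1 and 44.3 in Yap1_KO2 against 44.2 in ESC, and 28.9 in Yap1_KD1 and 32.2 in Control. Pkp4 was at 38.99 FPKM in dESC_Yap1_KD1 and 62.7 in dESC_control and rose with differentiation by 0.68 (limma, adjusted p = 0.0316). Jup, or plakoglobin, is the only catenin shared by desmosomes and adherens junctions, and it was at 53.2 FPKM in Yap1_OE and 51.1 in BirA, 46.8 in Yap1_KO1 and 49.6 in Yap1_KO2 against 66.4 in ESC, and 31.1 in Yap1_KD1 and 29.7 in Control. Jup was at 50.1 FPKM in dESC_Yap1_KD1 and 68.6 in dESC_control. The ESC arm was high and the knockdown arm low, and Jup rose with differentiation within that arm by 0.93 ± 0.16 (SE; adjusted p = 0.0153), in dESC_control to near the level of the undifferentiated ESC library.

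**Figure D4:**
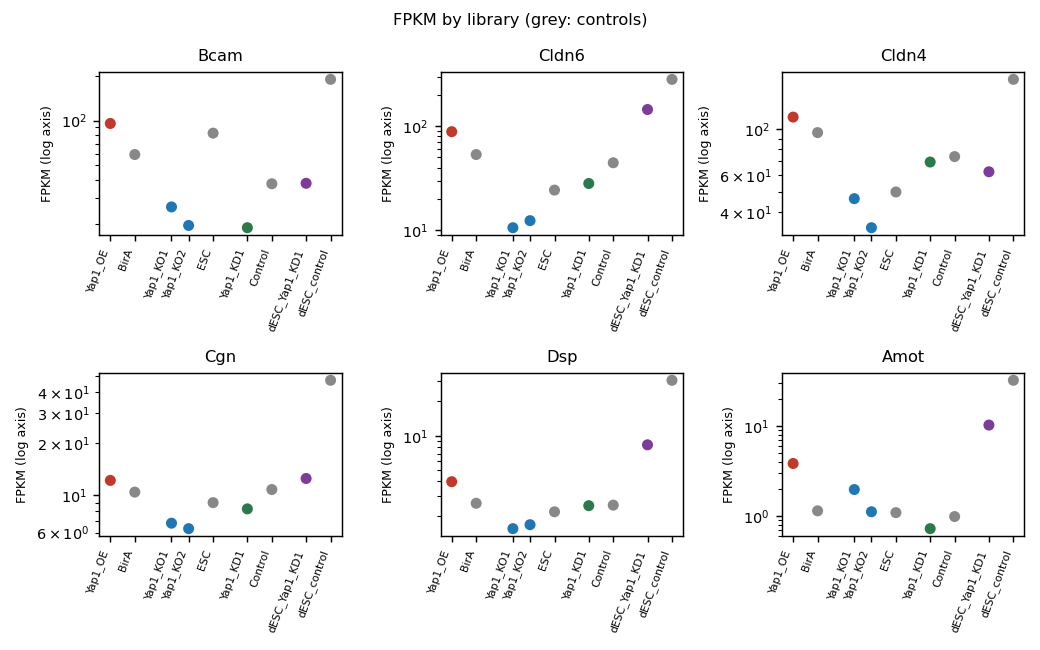
FPKM on a log axis of 6 members in each library, controls in grey and each perturbed library left of its control. Bcam, Cldn6 and Cgn were lower in each knockout-labelled or knockdown library than in its own control. Dsp differed from its control more in the differentiated pair than in any other comparison. Amot was apart both in that pair and between Yap1_OE and BirA.

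Of the catenins that bind classical cadherins, Ctnna1 and Ctnnd1 rose with differentiation and Ctnnb1 did not pass. Ctnnb1, beta-catenin, which links cadherins to alpha-catenin and carries Wnt signals, was at 327 FPKM in Yap1_OE and 312 in BirA, 342 in Yap1_KO1 and 359 in Yap1_KO2 against 320.5 in ESC, and 236 in Yap1_KD1 and 266 in Control. Ctnnb1 was at 298 FPKM in dESC_Yap1_KD1 and 285 in dESC_control. The 9 values lay within a narrow band, and its state ratio was 0.22 ± 0.11 (SE; limma, adjusted p = 0.155). Ctnna1, alpha-catenin, which joins the complex to actin and binds Yap1 through adaptor proteins, was at 193 FPKM in Yap1_OE and 172 in BirA, 211 in Yap1_KO1 and 218 in Yap1_KO2 against 224 in ESC, and 120.4 in Yap1_KD1 and 147 in Control. Ctnna1 was at 168 FPKM in dESC_Yap1_KD1 and 277 in dESC_control. dESC_control was the highest and Yap1_KD1 the lowest library, and it rose with differentiation by 0.70 (adjusted p = 0.02). Lrrtm2 overlaps Ctnna1. Ctnnd1, p120-catenin, which keeps cadherins at the surface, was at 61.5 FPKM in Yap1_OE and 54.5 in BirA, 74.9 in Yap1_KO1 and 84.3 in Yap1_KO2 against 67.9 in ESC, and 40.9 in Yap1_KD1 and 42.1 in Control. Ctnnd1 was at 75.4 FPKM in dESC_Yap1_KD1 and 115 in dESC_control and rose by 1.15 ± 0.17 (SE; adjusted p = 0.0109).

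The 2 differentiation pairs share no library and can be set side by side. Without the knockdown, dESC_control was at least 2-fold above Control for 21 of 40 members and below it for 1, where 12.9% and 9.85% of all genes were (1589 higher and 1213 lower). Median centring turned the balance of all genes to 1346 higher and 1482 lower, with an all-gene median of -0.064 in place of 0.041. With it, dESC_Yap1_KD1 was 2-fold above Yap1_KD1 for 8 of 37 members and below it for 1, where 10.2% and 10.1% were. In both pairs at once 7 of 37 members were 2-fold higher (Cldn6, Cldn7, Marveld2, Pard3, Amot, Amotl1 and Dsp) and 1 lower (Tjp3), against 7.44% and 7.04% of all genes. Of the 37, 30 were higher to any degree in both, against 43.6% of all genes. Both differentiated libraries were above all 7 undifferentiated ones for 16 of 40 members, against 21.2% of all genes, and below them for 1 (Cldn9), against 19.1%. The comparison of dESC_control with Control and that of dESC_Yap1_KD1 with dESC_control share the library dESC_control, so a gene measured too high there would be high in the first and low in the second. For Dsp those ratios were 3.18 and -1.75, for Cgn 2.03 and -1.83, for Bcam 2.31 and -2.30, for Epcam 0.57 and -0.007, and for Pard3 1.43 and -0.078. Epcam and Pard3, unlike the first 3, were level between the differentiated libraries.

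**Figure D5:**
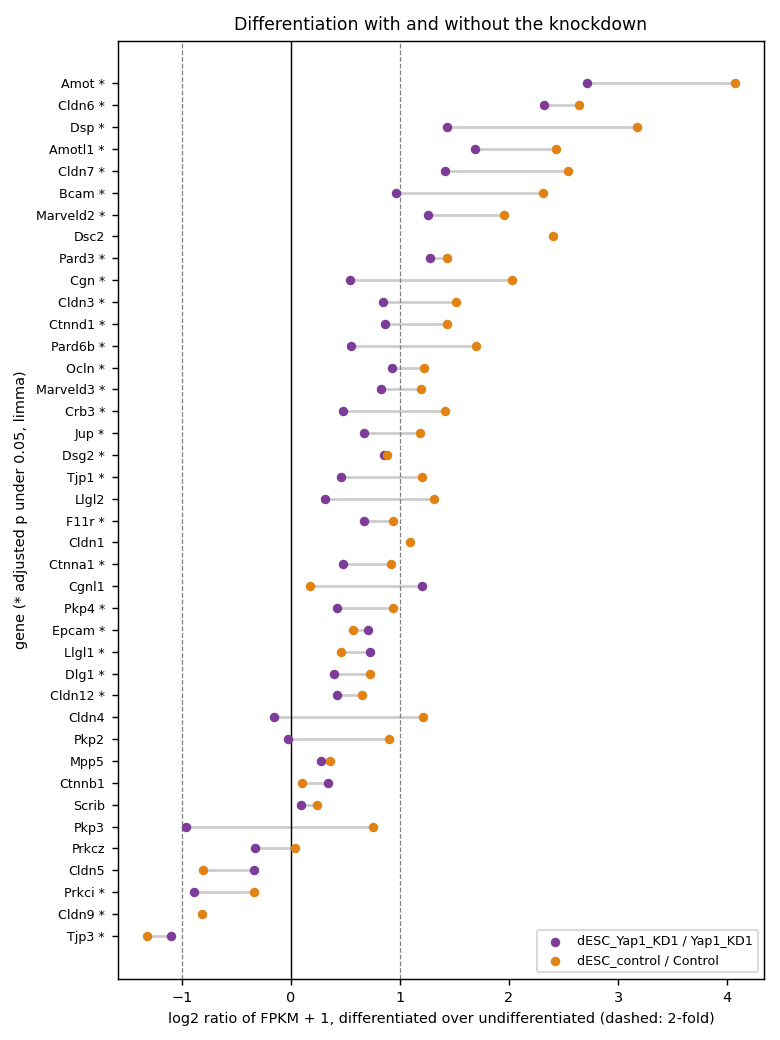
Log2 ratio of FPKM + 1, differentiated over undifferentiated, for each member (rows, ordered by the state ratio): dESC_Yap1_KD1 over Yap1_KD1 in purple, dESC_control over Control in orange; an asterisk marks an adjusted p under 0.05 in limma. Orange lies right of purple for most genes, with Amot, Dsp, Cgn and Pkp3 far apart, while Pard3, Dsg2 and Epcam lie close together.

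Each of the 4 perturbations has a control of its own, and none shares a library with another. Of 36 members tested in all, 11 had a ratio below 0 in the knockout-labelled pair, Yap1_KD1 and dESC_Yap1_KD1 and above 0 in Yap1_OE, against 8.73% of all genes. They were Cldn3, Cldn4, Cldn6, Cgn, Pard6b, Llgl2, Amotl1, Dsp, Ctnna1, Epcam and Bcam, and the count asks for a sign only, so several of these ratios are within 0.1 of 0. The reverse pattern had 0 of 36 members, against 8.16% of all genes. Yap1_OE was above all 3 undifferentiated controls for 15 of 39 members, against 28% of all genes, and below all of them for 6, against 26.1%. Among the 15 were Cldn4, Cldn6, Cgn, Amot, Amotl1, Dsp, Epcam, F11r and Bcam, and the 6 were Tjp3, Prkcz, Prkci, Llgl1, Scrib and Pkp3. In Yap1_OE the simple epithelial markers summed to 349 FPKM, against 163 in BirA, with Krt8 at 63.4 in Yap1_OE and 7.32 in BirA. Other lists differed too. Trophoblast markers summed to 54.5 FPKM in Yap1_OE and 40.0 in BirA. The ES cell markers went the other way, at 4515.3 in Yap1_OE and 6256.5 in BirA, as did mesenchyme markers, at 143 and 209. The part of these markers in the differences was not tested.

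Genes of the same structures outside the list were taken from a separate fixed list. In the state term 6 of 15 other tight junction genes rose and 3 fell, 7 of 16 other adherens junction genes rose and 3 fell, 1 of 3 other desmosome genes rose, and 9 of 19 other polarity genes rose and 1 fell (limma, adjusted p under 0.05 over all genes), where 23.3% of all genes rose and 21.6% fell. The falls in the tight and adherens junction lists were near that share. E-cadherin (Cdh1), the main adhesion molecule of ES cells, was at 176 FPKM in dESC_Yap1_KD1 and 256 in dESC_control, against 104 to 128 in undifferentiated libraries, and rose by 0.97 (adjusted p = 0.0135). Lsr, the lipolysis-stimulated receptor of tricellular junctions, was at 61.04 FPKM in dESC_Yap1_KD1 and 82.8 in dESC_control, against at most 34.1 before, a rise of 1.64 (adjusted p = 0.00571). Inadl, the Crumbs scaffold PATJ, rose by 2.40 (adjusted p = 0.00529), with 5.79 FPKM in Yap1_OE and 2.42 in BirA. Vcl, or vinculin, rose by 1.44 (adjusted p = 0.0107). Perp, a desmosome protein, was at 19.01 FPKM in Yap1_OE and 5.77 in BirA, and at 20.5 in dESC_Yap1_KD1 and 55.7 in dESC_control. Jam2, a junctional adhesion molecule that F11r is related to, went the other way, at 5.89 FPKM in dESC_Yap1_KD1 and 2.43 in dESC_control, against 17.95 to 36.8 before differentiation, with a state ratio of -2.06 (adjusted p = 0.00785). In dESC_Yap1_KD1 against dESC_control, 0 of 14 other tight junction, 0 of 16 other adherens junction, 1 of 3 other desmosome (Perp) and 0 of 17 other polarity genes were 2-fold lower, and Jam2 was the only one of these 2-fold higher. Over all genes 4.5% were 2-fold lower and 1.54% higher, so counts of 0 among 14, 16 and 17 genes are near that share. The 1 of 3 desmosome genes is a single gene. Median ratios were -0.32 for the other tight junction, -0.31 for the other adherens junction, -0.79 for the other desmosome and -0.14 for the other polarity genes. The median over all genes was -0.011.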

How the data were processed

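The authors deposited 1 table of FPKM per gene for 9 libraries. The submitters' processing notes name TopHat2, Cuffdiff and the build mm9; their versions, the annotation and strand use are not given in the sources read. Cuffdiff estimates levels, so a 0 can be a failed estimate. Of 23277 rows, 4746 blank rows and 27 with a symbol turned into a date were dropped, and 176 small RNA rows (15.96% to 23.8% of summed FPKM) were left out of fits. Members, gene lists and tests were chosen with earlier results of these data known.

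Values were analysed as log2(FPKM + 1), leaving out genes that stayed under 1 FPKM in every library compared, which understates ratios of low genes. Single libraries were compared by 2-fold counts, without p-values. Fits were made in limma 3.58.1 (R 4.3.3, trended variance), with p-values adjusted by Benjamini-Hochberg over all genes and called at 0.05: the knockout label against ESC (1 residual degree of freedom), both loss arms with an arm term (2), and state plus knockdown (1). A control of 1 library is taken to vary like the others, and since the labels name no separate cultures, the p-values reflect the spread among these samples alone, perhaps technical. The fits were also run on simulated data with noise drawn from the difference between Yap1_KO1 and Yap1_KO2. That noise does not hold the differences between control libraries, so the run cannot show how the fits behave under them. Effective depth came from FPKM steps of low genes, scaled over 270 genes by transcript length. Genes given in every library are members past a threshold and the most abundant of each role group, 35 in all. A floor of 5 FPKM held for the 2-fold threshold only, not for limma calls. Genes outside this rule, and genes singled out in patterns, were chosen after their values were seen. Promoter windows are RefSeq's (GRCm38.p6). Alternatives were pseudocounts of 0.1 and 5, a filter at 5 FPKM or none, median centring, small RNA rows kept, a GC trend removed, other controls, and each knockout-labelled library left out.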

Additional observations from a re-analysis of the deposited data

Results flagged for a closer look

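Pkp3, a plakophilin, had a knockdown ratio of -1.435 (log2) in differentiated cells and of 0.28 in undifferentiated cells. The opposite signs of these ratios, each from 1 library against 1, were the reason to list it, and the difference was not tested.

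Cldn4 had a ratio of dESC_control over Control of 1.214 (log2) and a ratio of dESC_Yap1_KD1 over Yap1_KD1 of -0.15. It was listed for these opposite signs, and the difference was not tested. The differentiated values were 62.4 FPKM in dESC_Yap1_KD1 and 173 in dESC_control. Only members at least 2-fold apart in one of the pair of ratios were considered.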

How the results depend on the processing

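Replicates could not be paired between groups, because only the knockout label had more than 1 library. The state fit did carry a term for the knockdown, and the joint fit a term for the arm. With 1 library in most groups, depth and the lack of replicates limit low members, and none of the results tallied below reversed under an alternative. The cause of the following changes was not tested. Members 2-fold above BirA in Yap1_OE numbered 3 with a pseudocount of 0.1, 0 with one of 5, 0 with a filter at 5 FPKM and 2 against the mean of 3 controls, where 0 were 2-fold lower, as with a pseudocount of 5. Against that mean, Yap1_KD1 had 1 member 2-fold higher (Cldn7) and 1 lower (Bcam). In dESC_Yap1_KD1 1 member was 2-fold higher with a pseudocount of 0.1 (Cgnl1) and 7 were lower with one of 5. In the knockout label, members called higher numbered 1 (Prkci) with a pseudocount of 5, a filter at 5 FPKM or centring. Members called lower numbered 2 with a pseudocount of 5, 3 with a filter at 5 FPKM, 3 after centring, 2 with a GC trend removed, and 0 with no filter, small RNA rows kept or all 3 controls. All genes called there were 10 higher and 38 lower, but 213 and 175 with a filter at 5 FPKM, 166 and 219 after centring, 55 and 117 with a pseudocount of 5, 35 and 88 with a GC trend removed, 2 and 18 with small RNA rows kept, 1 and 3 against 3 controls, and 0 and 0 with no filter. In the joint fit 1 gene was called higher and 3 lower over all genes. Leaving out either knockout-labelled library left no replicate in any group there. The calls of those runs are therefore not listed, though they enter the tally below. In the state term 1 member was called lower with small RNA rows kept. Values of single genes were tallied only where a member given in every library was called or 2-fold apart in the main setting. Bcam and Cldn6 were tallied in every comparison. Of these values under alternatives, 351 kept their direction and side of the threshold, 26 lost a call, 10 gained one and 2 moved. Gains could thus be counted for Bcam and Cldn6 only, and the calls gained by Prkci are not among the 10.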
